A study of Mus musculus with 8 samples.

Results

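The photoreceptor ribbon synapse was examined through 10 genes, Ctbp2, Bsn, Pclo, Rims2, Cacna1f, Cabp4, Cplx3, Cplx4, Slc17a7 and Elfn1, chosen by name from the known biology of this terminal. Each matched 1 row of the deposited table, so the members were 10 of 56465 listed features, and all 10 passed the filter on low values that left 19798 features for testing. The tested retinas were 4 from mice that express human transferrin (TG, replicates 2, 5, 6 and 8), against 4 from wild-type mice (WT, replicates 3, 4, 5 and 7). Both groups carry the C57Bl/6J background label, and every retina had been detached by a subretinal injection of 10 µl sodium hyaluronate and was collected at day 4, so the comparison is between detached retinas and holds no attached control. The promoter that drives the transgene, the age of the mice and whether each retina came from a separate mouse remain not given in the sources used here, and the p-values therefore cover only the variation among these retinas, which may be technical. The series title gives the purpose as the protective effect of transferrin during detachment.

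Photoreceptors release glutamate continuously in darkness, and light slows that release. To sustain it, their terminals hold an electron-dense ribbon that tethers synaptic vesicles above the release sites, beside L-type calcium channels that open with depolarisation. The ribbon terminal is known to retract and remodel when the retina is detached from the pigment epithelium.

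Libraries held 61535690 to 70540242 reads in TG and 68433927 to 75866423 in WT, and values are read counts scaled by the authors to a common depth (normalized reads). Mitochondrially encoded features held 20.4% to 22.3% of normalized reads in TG and 21.9% to 27.5% in WT. The part of that share in the members' values was not tested. Rod markers identified the tissue, with 8 markers summing to 2774787 to 4206113 normalized reads in TG and 3155985 to 3627030 in WT, and none of them at 0 in any library. WT 3 stood apart, with 75384 normalized reads over 5 pigment epithelium markers where WT 4, 5 and 7 had 3029 to 7129, and with 13225 over 5 lens markers where those had 23.3 to 443. Among TG libraries, TG 2 was highest for the pigment epithelium sum (33825, the others 5184 to 17918) and TG 6 for lens (10376, the others 91.3 to 2755). Of the pigment epithelium reads, Ttr alone held 67791 in WT 3 and 30941.5 in TG 2. Ttr and Rpe65 peaked in those libraries within each group, as did Tyr in WT 3. The other markers did not share this order. Mlana was highest in WT 7 and TG 6, and Best1 in WT 4 and TG 8. Among TG libraries, Tyr was highest in TG 6. Of 6 microglia markers 6 and of 5 Mueller glia markers 4 had a positive log2 fold change, and 0 passed. No member passed the test with all libraries or without WT 3 and TG 6. The TG retinas came from 2 males and 2 females, and the WT retinas from 3 males and 1 female, and 0 members passed with sex as a term or among males only. In whole retinas, fewer cells of a type and less RNA per cell cannot be told apart.

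No ribbon synapse gene differed between TG and WT retinas beyond the spread between libraries. By the sign of the fitted log2 fold change, 5 of the 10 members lay higher and 5 lower in TG (Ctbp2, at nearly 0, among the lower ones though its mean read count was slightly higher), and 0 passed at an adjusted p under 0.05 with limma, where 0.0101% of all tested features did. The smallest adjusted p of any member was 0.918 with limma. edgeR and DESeq2 on the recovered reads also called 0 members, against 0.0101% and 0.081% of all features. At an unadjusted p under 0.05 there were 0 of 10 members with each of the 3 tools, where limma gave 4.64%, edgeR 4.12% and DESeq2 5.35% of all features. The libraries of the groups overlapped for each of the 10 genes, while 2.53% of all features showed no overlap. The median log2 fold change (TG over WT) was 0.01 over the members and -0.02 over all features tested. Single log2 fold changes ran from -0.39 to 0.24, with standard errors of 0.11 to 0.21, and the 95% intervals of the 10 genes together spanned -0.84 to 0.64, or 0.557-fold to 1.56-fold. Each interval bounds the change these 8 libraries leave possible for its own gene, and a p above the threshold does not show that the groups were alike.

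**Figure D1:**
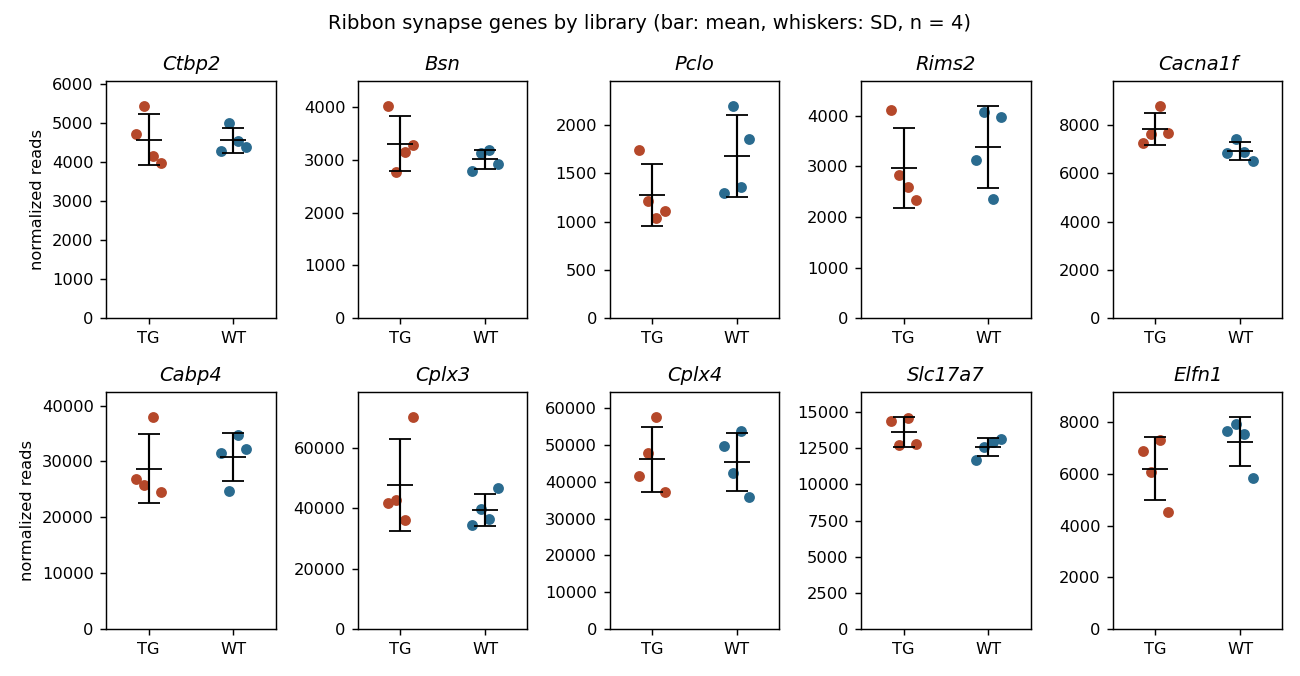
Normalized reads of the 10 ribbon synapse genes in each library, TG on the left and WT on the right of every panel, on linear axes from 0. Points are libraries, the horizontal bar is the group mean and whiskers are the SD (n = 4 each). In every panel the groups overlap.

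The ribbon scaffold was represented by the transcripts of Ctbp2, Bsn, Pclo and Rims2. Ctbp2 occupies 132987011 to 133123483 of chromosome 7 (mm10, as deposited), on the minus strand. It makes both the transcriptional corepressor CtBP2 and Ribeye, the core protein of the ribbon, which is known to be transcribed from a start of its own inside the gene. In the GENCODE M21 annotation (GRCm38, the same build) 1 of 3 listed Ctbp2 transcripts begins at 133015248 with a first exon of 1731 bases, while the others begin at 133123367 and 133123166. The deposited value counts the gene as a whole, so Ribeye and CtBP2 messages are pooled in it, and 314 bases of its exons are shared with the neighbouring Fgfr2. The 250 bases before that internal start are shown because they set the ribbon-specific transcript apart from the general one. They come from RefSeq (GRCm38.p6, chr7:133015248-133015497, minus strand), 5′ to 3′, and the capitals mark the core motif of Crx, the homeodomain factor of photoreceptors, read on the opposite strand.
Ctbp2 internal start: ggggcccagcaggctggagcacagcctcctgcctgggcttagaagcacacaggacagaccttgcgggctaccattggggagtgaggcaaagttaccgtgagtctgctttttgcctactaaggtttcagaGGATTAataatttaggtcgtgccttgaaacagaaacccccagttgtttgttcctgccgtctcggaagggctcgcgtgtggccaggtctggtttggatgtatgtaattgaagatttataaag
The motif searched was TAATCC on either strand, and it begins at position -121 here, counted from the start. Each of 32851 RefSeq windows was searched over its full length, which may exceed the 250 bases shown. The motif was held by 7.06% of them, and of 8 windows found for 7 members this was the only one. Rims2, Cabp4 and Cplx4 had no window in the table. Such a match is a string of letters and not a measured binding site.

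Ctbp2 had 4725, 5430, 4162 and 3972 normalized reads in TG 2, 5, 6 and 8, against 4278, 5012, 4551 and 4393 in WT 3, 4, 5 and 7. TG values lay on both sides of the WT range, and the means were 4572 ± 655 in TG and 4558 ± 322 in WT (SD, n = 4 each). The gene's log2 fold change came to -0.004 ± 0.13 (SE; limma, Benjamini-Hochberg or BH-adjusted p = 0.998), with a 95% interval from -0.29 to 0.29. This was the closest to 0 of the 10, and its sign turned with 12 of 24 alternative settings.

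Bsn encodes Bassoon, the large protein that anchors the ribbon to the active zone, and lies on chromosome 9 (108096023 to 108190383). It had 4014, 2772, 3144 and 3281 normalized reads in TG 2, 5, 6 and 8, against 2796, 3135, 3186 and 2919 in WT 3, 4, 5 and 7. TG 2 was the highest library and TG 5 the lowest, so TG enclosed WT. The log2 fold change was 0.12 ± 0.14 (SE; limma, BH-adjusted p = 0.93), 0.03 without TG 2 and 0.20 without TG 5.

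Pclo encodes Piccolo, a relative of Bassoon that occurs at mouse ribbon synapses as the short form Piccolino, and lies on chromosome 5 (14514918 to 14863457). It had 1743, 1218, 1035 and 1109 normalized reads in TG 2, 5, 6 and 8, against 1295, 2192, 1360 and 1860 in WT 3, 4, 5 and 7. Of the TG libraries, 3 lay below every WT library, and TG 2 stood between the 2 lower and the 2 higher WT libraries. The log2 fold change of -0.39 ± 0.21 (SE) was the most negative of the 10, with an interval from -0.84 to 0.07, and it did not pass (limma, unadjusted p = 0.088, BH-adjusted p = 0.918). It was -0.25 without WT 4, and -0.11 among males only (TG 2 and 5, WT 3, 4 and 5). Gene-level counts do not separate Piccolino from full-length Piccolo, and the exons overlap those of the antisense genes Gm26918 (429 bases) and Gm26954 (496 bases).

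Rims2 encodes RIM2, which holds calcium channels and primed vesicles together at the active zone, and lies on chromosome 15 (39198260 to 39684372). It had 4123, 2826, 2596 and 2341 normalized reads in TG 2, 5, 6 and 8, against 3122, 4065, 2346 and 3974 in WT 3, 4, 5 and 7. Both groups ran over nearly the same range, with TG 2, WT 4 and WT 7 high. Its log2 fold change was -0.19 ± 0.21 (SE; limma, BH-adjusted p = 0.93). It was -0.35 without TG 2 or without WT 5, and between -0.10 and -0.08 without TG 8, WT 4 or WT 7.

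Pclo and Rims2 were highest in the same 3 libraries, TG 2, WT 4 and WT 7, and across the 8 libraries their log2 values had a Pearson r of 0.87 (exact permutation p = 0.0093, two-sided) and a Spearman rho of 0.74 (exact permutation p = 0.046). Without TG 2 and WT 4, the libraries farthest from the median of Rims2, r was 0.78, and with each group centred on its own mean it was 0.89. Adjusted over the 45 pairs of members, the p was 0.21 for r and 0.69 for rho, and 0 pairs passed. Neither sex held the 6 libraries needed for an r of its own. Those libraries also held more of long transcripts in general. A length balance was taken for each library as the median log2 deviation of 1888 genes with over 6000 bases of exon minus that of 580 genes with up to 1000 bases, leaving out the synapse genes. It was 0.37, -0.06, -0.49 and -0.21 in TG 2, 5, 6 and 8, against -0.07, 0.43, -0.32 and 0.40 in WT 3, 4, 5 and 7. The 3 highest libraries by length balance were thus the 3 highest for Pclo and Rims2, whose exons cover 22051 and 7839 bases. The same was true of 20% of the members (2 of 10), beside 10.9% of 11644 features matched to a length. It held for 24.3% of genes with over 6000 bases and 0.345% of genes with up to 1000 bases. Those genes define the balance, so the last 2 shares follow in part from its definition and are no independent support. With the length balance as a term in the fit, an alternative added after the data were seen, the log2 fold change was -0.20 for Pclo and 0.01 for Rims2. In Bsn, with 15938 bases of exon, only 1 of its 3 highest libraries was among those 3.

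**Figure D2:**
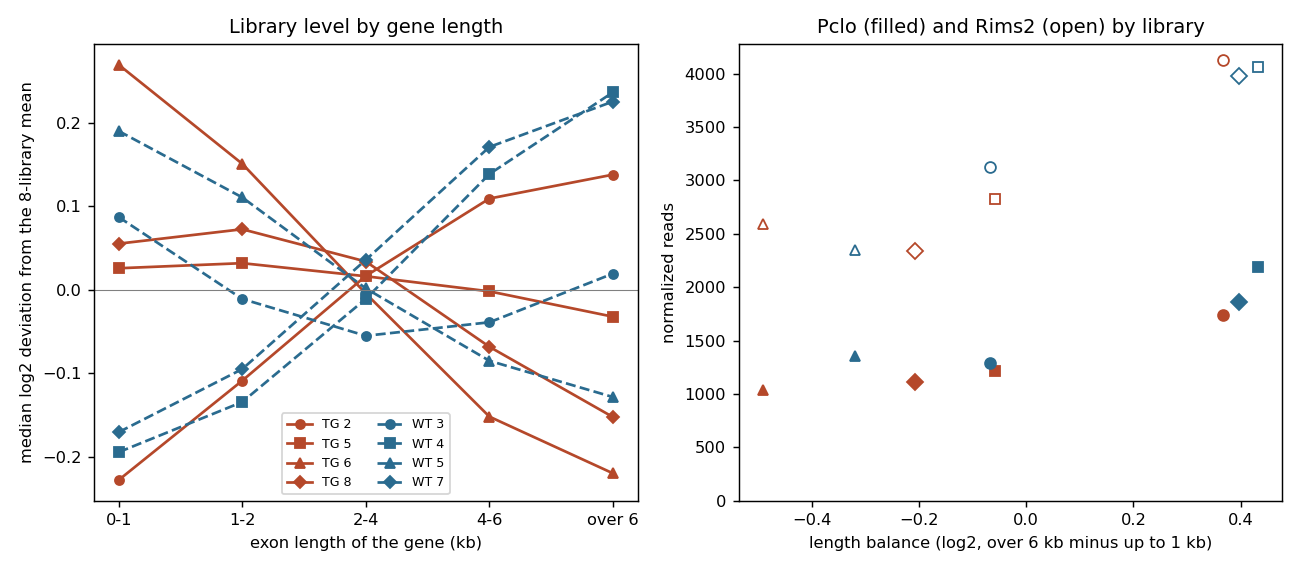
Left, the median log2 deviation of genes in 5 classes of exon length from their mean over the 8 libraries, 1 line per library (TG solid, WT dashed). Right, normalized reads of Pclo (filled) and Rims2 (open) against the length balance of each library, with the symbols of the left panel, where TG 2, WT 4 and WT 7 stand at the upper right for both genes.

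The calcium entry that drives release was represented by the transcripts of Cacna1f and Cabp4 and was not itself measured. Cacna1f encodes the pore of Cav1.4, the calcium channel of photoreceptor terminals, and its row covers 7598508 to 7635196 on the X chromosome. It had 7264, 7605, 8763 and 7676 normalized reads in TG 2, 5, 6 and 8, against 6833, 7408, 6865 and 6513 in WT 3, 4, 5 and 7. Of the TG libraries, 3 lay above every WT library, while TG 2 lay below WT 4. The means were 7827 ± 649 in TG and 6905 ± 371 in WT (SD, n = 4 each), with a log2 fold change of 0.18 ± 0.12 (SE; limma, BH-adjusted p = 0.918). GENCODE places the start of Cacna1f at 7607083, and the additional stretch in the deposited row overlaps a row labelled Ccdc22 and Ppp1r3f (7558562 to 7605420). That row had a log2 fold change of 0.11 ± 0.13 (SE; limma, BH-adjusted p = 0.93), and how reads in the overlap were counted was not given in the sources used here.

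Cabp4 encodes the calcium-binding protein that shifts Cav1.4 to open at the voltages of photoreceptors, and lies on chromosome 19 (4135425 to 4144034). It had 26810, 25734, 37947 and 24471 normalized reads in TG 2, 5, 6 and 8, against 31584, 24722, 34726 and 32170 in WT 3, 4, 5 and 7. TG 6 was the highest library of all and TG 8 the lowest, and 3 of 4 TG libraries lay in the lower part of the range. The log2 fold change was -0.11 ± 0.16 (SE; limma, BH-adjusted p = 0.94), so the channel pore and its partner had fold changes of opposite sign, neither of which passed. Cabp4 was at -0.25 without TG 6 and -0.21 without WT 4, and at -0.07, -0.04 and -0.05 without TG 5, TG 8 and WT 5 in that order. The Cabp4 row overlaps that of Gpr152, which lies on the opposite strand in GENCODE with no shared exon.

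Vesicle release was represented by the transcripts of Cplx3, Cplx4 and Slc17a7 and was not itself measured. Cplx3 and Cplx4 encode the complexins that bind the fusion machinery of photoreceptor terminals in place of the complexins of most brain synapses. Slc17a7 encodes VGLUT1, the transporter that fills vesicles with glutamate. Cplx3, on chromosome 9 (57599992 to 57606281), had 41667, 42675, 36030 and 70120 normalized reads in TG 2, 5, 6 and 8, against 34524, 39870, 36364 and 46757 in WT 3, 4, 5 and 7. TG 8 stood far above all other libraries. The log2 fold change of 0.24 ± 0.19 (SE; limma, BH-adjusted p = 0.918) was the highest of the 10, and it was 0.03 without TG 8 and 0.35 without TG 6. Cplx4 had 41740, 47861, 57638 and 37308 normalized reads in TG 2, 5, 6 and 8, against 49883, 42417, 53738 and 35933 in WT 3, 4, 5 and 7. TG and WT covered almost the same span, with means of 46137 ± 8804 in TG and 45493 ± 7919 in WT (SD, n = 4 each) and a log2 fold change of 0.02 ± 0.17 (SE; limma, BH-adjusted p = 0.99). TG 8, the highest library for Cplx3, was the second lowest for Cplx4.

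Slc17a7, whose row on chromosome 7 (45163921 to 45176138) also carries the name Mir7055, had 14417, 12718, 14627 and 12806 normalized reads in TG 2, 5, 6 and 8, against 11727, 12599, 12953 and 13166 in WT 3, 4, 5 and 7. TG 2 and TG 6 lay above every WT library and the other TG libraries within the WT range. This was the steadiest of the 10 genes, with a coefficient of variation of 7.48% in TG and 5.03% in WT, and its log2 fold change was 0.11 ± 0.11 (SE; limma, BH-adjusted p = 0.92).

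The link across the cleft was represented by the transcripts of Elfn1. Elfn1 encodes an adhesion protein of rod terminals that binds the glutamate receptor mGluR6 of rod bipolar cells in mice. It lies on chromosome 5 (139907943 to 139974725) and had 6897, 6067, 7301 and 4543 normalized reads in TG 2, 5, 6 and 8, against 7683, 7938, 7533 and 5840 in WT 3, 4, 5 and 7. Of the WT libraries, 3 lay above every TG library, while WT 7 lay within the TG range. The log2 fold change was -0.24 ± 0.16 (SE; limma, BH-adjusted p = 0.918), and -0.10 without TG 8.

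Elfn1 and Cplx3 varied in opposite directions over the libraries, with the most negative Pearson r of the 45 pairs over all 8 libraries. Their log2 values had a Pearson r of -0.94 (exact permutation p = 0.0018, two-sided) and a Spearman rho of -0.83 (exact permutation p = 0.015), and after adjustment over the 45 pairs the p was 0.079 for r and 0.35 for rho, so the pair did not pass. Without TG 8 and WT 3, the libraries farthest from the median of Cplx3, r was -0.80, and with each group centred on its own mean it was -0.93. Cplx3 and Cplx4 had an r of -0.74 (exact permutation p = 0.017, adjusted p = 0.25) and a rho of -0.83 (exact permutation p = 0.015, adjusted p = 0.35), with an r of -0.89 without the same 2 libraries, so by rho the pairs were tied and without those libraries Cplx3 and Cplx4 had the more negative r. Of the 45 pairs, 23 had a positive and 22 a negative r, with a median of 0.0021, so the members did not vary as 1 block.

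**Figure D3:**
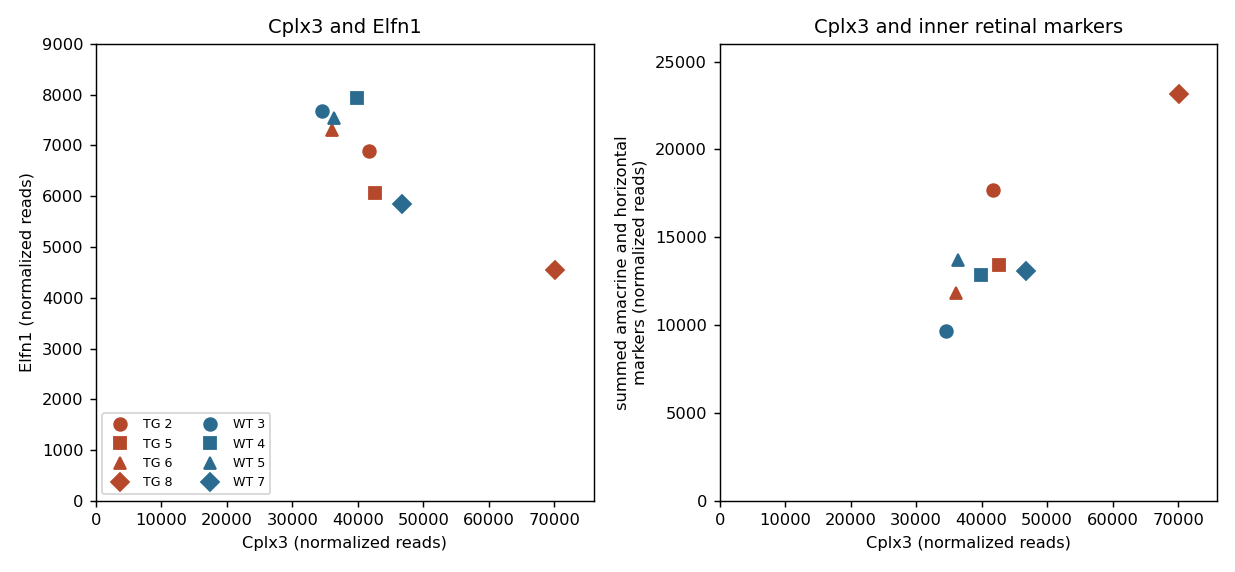
Left, normalized reads of Elfn1 against Cplx3, 1 symbol per library (TG red, WT blue). Right, the summed normalized reads of 6 amacrine and horizontal cell markers against Cplx3, with the symbols of the left panel, where TG 8 is the highest on both axes.

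Cplx3 is also made by amacrine cells in mice. By summed level, TG 8 was also the highest library in amacrine and horizontal, bipolar and Mueller glia markers, though not in ganglion cell markers. Of the single amacrine and horizontal, bipolar and Mueller glia markers, Prkca was highest in TG 2. Gad1, Glul and Slc1a3 were highest in WT 7, and the rest in TG 8. The 6 amacrine and horizontal cell markers summed to 17683, 13424, 11811 and 23147 normalized reads in TG 2, 5, 6 and 8, against 9677, 12834, 13695 and 13071 in WT 3, 4, 5 and 7. Of these 6 markers, 5 had a positive log2 fold change, 0 passed, and only Lhx1 was at 0 in any library. The 7 bipolar cell markers summed to 33706 to 59808 in TG and 31321 to 41026 in WT, again with TG 8 highest and none at 0. The 5 Mueller glia markers summed to 158337 to 242871 in TG, highest in TG 8, and 104403 to 183917 in WT. Apoe alone held 166956 of the Mueller glia reads in TG 8. The 5 ganglion cell markers summed to 48030 to 82971 in TG, highest in TG 8, and 55417 to 88084 in WT, highest in WT 7. The part of these cell types in the values of Cplx3, or of any other member, was not tested.

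The 250 bases before the RefSeq starts of Cplx3 and Elfn1 (GRCm38.p6) are shown as the windows of the pair with the most negative r over all libraries, Cplx3 from chr9:57606282-57606531 on the minus strand and Elfn1 from chr5:139907616-139907865 on the plus strand. Both are 5′ to 3′, and the capitals mark TGCTGA on either strand, the core letters recognised by Nrl, the factor that sets rod fate.
Cplx3: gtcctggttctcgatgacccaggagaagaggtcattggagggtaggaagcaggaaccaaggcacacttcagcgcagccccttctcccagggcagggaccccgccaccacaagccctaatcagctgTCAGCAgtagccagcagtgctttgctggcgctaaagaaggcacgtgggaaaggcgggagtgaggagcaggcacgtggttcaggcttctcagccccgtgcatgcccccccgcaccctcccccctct
Elfn1: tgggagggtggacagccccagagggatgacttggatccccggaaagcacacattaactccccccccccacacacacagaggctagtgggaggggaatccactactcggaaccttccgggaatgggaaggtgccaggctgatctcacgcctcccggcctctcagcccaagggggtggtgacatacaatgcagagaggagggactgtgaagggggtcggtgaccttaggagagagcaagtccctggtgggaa
The Cplx3 match begins at position -125, read on the opposite strand, and Elfn1 held neither this motif nor TAATCC. Of the 32851 windows, 19.5% held TGCTGA, and of the 8 member windows only that of Cplx3 did. Absence from a window says only that these letters are not in it.

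**Figure D4:**
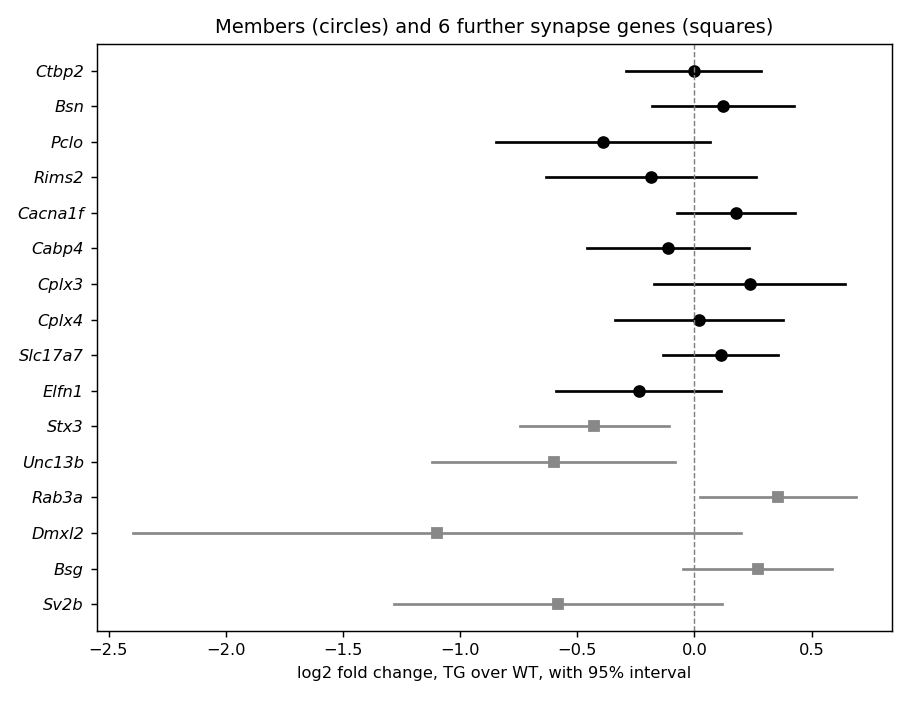
Log2 fold change (TG over WT) with its 95% interval (limma) for the 10 members (black circles) and for the 6 further synapse genes with the smallest p (grey squares). The dashed line marks 0, which lies inside all 10 member intervals.

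To compare levels between genes, normalized reads were divided by the length of exon in GENCODE M21 (reads per kilobase). Cplx4, on chromosome 18 (65955724 to 65970187), was the most abundant with 25420 ± 4851 reads per kilobase in TG and 25065 ± 4363 in WT (SD, n = 4 each). Cabp4 followed with 20056 ± 4335 in TG and 21494 ± 2984 in WT, and Cplx3 with 16127 ± 5175 in TG and 13335 ± 1827 in WT. Over all 8 libraries the range of Cabp4 overlapped those of both complexins, so the order of these 3 lies within their spread. Slc17a7 came next with 4563 ± 341 reads per kilobase in TG and 4218 ± 212 in WT, clear of its neighbours. Elfn1 (1618 ± 318 in TG and 1892 ± 249 in WT), Cacna1f (1288 ± 107 in TG and 1136 ± 61.0 in WT) and Ctbp2 (1117 ± 160 in TG and 1113 ± 78.7 in WT) had ranges over the libraries that overlapped from each to the next. The large scaffolds were lowest, with Rims2 at 379 ± 101 in TG and 431 ± 103 in WT, Bsn at 207 ± 32.7 in TG and 189 ± 11.5 in WT, and Pclo at 57.9 ± 14.5 in TG and 76.0 ± 19.3 in WT. The exon length unites all isoforms, so genes whose retinal form is short, such as Pclo, are understated.

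A further 34 genes of the terminal and its active zone were read in the same fit. All 34 were tested. In TG, 10 had a positive and 24 a negative log2 fold change, beside 9472 and 10326 of all 19798 features tested. The split by sign was not tested, and genes that vary together across libraries do not count separately. With limma, edgeR or DESeq2, 0 of the 34 passed. Groups that did not overlap were seen for 0 of them, beside 2.53% of all features. At an unadjusted p under 0.05, there were 3 of 34 with each tool, 1 higher and 2 lower with limma, beside 4.64% (limma), 4.12% (edgeR) and 5.35% (DESeq2) of all features. Their median log2 fold change was -0.09, beside -0.02 for all features. Stx3, the syntaxin of ribbon synapses, had 11168, 10515, 9571 and 9051 normalized reads in TG 2, 5, 6 and 8, against 12509, 14034, 11008 and 17210 in WT 3, 4, 5 and 7. Only TG 2 exceeded the lowest WT library, WT 5, and the log2 fold change of -0.43 ± 0.15 (SE; limma, unadjusted p = 0.012, BH-adjusted p = 0.918) did not pass. Unc13b, the vesicle-priming factor Munc13-2, had 2583, 2521, 1367 and 1745 normalized reads in TG 2, 5, 6 and 8, against 2888, 3565, 2001 and 3988 in WT 3, 4, 5 and 7. Its log2 fold change was -0.60 ± 0.24 (SE; limma, unadjusted p = 0.027, BH-adjusted p = 0.918), and -0.37 with the length balance as a term. Rab3a, a GTPase of synaptic vesicles, ran the other way, with 33062 to 49041 normalized reads in TG and 26988 to 39204 in WT and a log2 fold change of 0.36 ± 0.15 (SE; limma, unadjusted p = 0.037, BH-adjusted p = 0.918). Among males only the log2 fold change was -0.20 for Stx3, -0.10 for Unc13b and 0.17 for Rab3a. Dmxl2, a vesicle protein, stood at -1.10 ± 0.60, the vesicle glycoprotein gene Sv2b at -0.58 ± 0.32 and Bsg, a glycoprotein that escorts lactate transporters, at 0.27 ± 0.15 (log2 fold change with SE), each with a BH-adjusted p of 0.918 (limma). Dmxl2, at 13.7 normalized reads in TG 8 and 66.0 to 101.1 in the other TG libraries, was at -0.49 without TG 8, and Sv2b at -0.29 without WT 7. Of the 34 genes, 11 (32.4%) had TG 2, WT 4 and WT 7 as their 3 highest libraries, against 10.9% of 11644 features matched to a length. With the length balance as a term, Sv2b stood at -0.24, Stx3 at -0.33, Dmxl2 at -0.77, Rab3a at 0.30 and Bsg at 0.24.

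Set against rod markers within the same library, the synapse genes gave values that overlapped between the groups. The mean log2 value of the 10 members minus that of the 8 rod markers was -3.91, -3.77, -4.26 and -3.94 in TG 2, 5, 6 and 8, against -4.08, -3.88, -3.99 and -4.28 in WT 3, 4, 5 and 7. TG and WT overlapped almost fully, with means of -3.97 ± 0.21 in TG and -4.06 ± 0.17 in WT (SD, n = 4 each), a difference of 0.09 given with no test. It was 0.02 without TG 5 or without WT 7, 0.18 without TG 6 and 0.15 without WT 4. Of the 8 rod markers, 2 had a positive and 6 a negative log2 fold change, and 0 passed. Among 5534 other features with a symbol and a mean of at least 1000, those whose log2 values followed the mean standardized member most closely over the 8 libraries were Scaf11 (Pearson r 0.94), Upf1 (0.91), Orai2 (0.90), Scly (0.88) and Incenp (0.86). That mean profile was highest in TG 2 (0.47) and lowest in TG 8 (-0.49). The features named were picked for the highest r of 5534 over only 8 libraries. Such a search can return high values without any link, and none of them was tested.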

How the data were processed

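The deposited table lists features on mm10 (GRCm38) with a signal that the authors normalized with DESeq2, per the labels. Tools listed in the submitters' processing notes were STAR 2.4.0, SAMtools, Picard, FastQC and DESeq2. How reads were assigned to features, whether by strand, and from which annotation remain not given in the sources used here, so antisense and overlapping reads could not be told apart. Libraries were made from polyadenylated RNA with a strand-marking kit, per the labels' protocols. Within each column, 100% of values lay within 0.01 of a whole multiple of its smallest positive value, so read counts were recovered. The number of sample columns not mapped to a sample was 0. No 2 libraries were near-copies (lowest chi-square per feature 45.4).

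The test across all 19798 features with a mean of at least 10 was limma 3.58.1 (R 4.3.3, trended prior variance) on log2(value + 1), with Benjamini-Hochberg adjustment over all of them and a threshold of 0.05. Fold changes are on that scale. edgeR 4.0.16 (quasi-likelihood) and DESeq2 1.42.0 ran on recovered counts as alternatives. The limma procedure was also run on simulated counts, with changes larger than those of any member. That run cannot show how changes of the members' size would fare. Intervals are 95%. For exon length, 97.2% of features with a symbol and a mean of at least 100 matched GENCODE M21. Named genes were all members, the 6 of the further list with the smallest p, and the 5 most similar features. The members, lists and tests were chosen with earlier results of these data known.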

Additional observations from a re-analysis of the deposited data

Results flagged for a closer look

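The highest or lowest library of each group of 4 was compared with its neighbours by Dixon's ratio at its 95% limit for 54 quantities, the members, the further synapse genes and the marker sums. Of 108 groups, 9 passed the limit, where chance gives about 1 in 20, and none of the 9 was a member.

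Among synapse genes, Rims1 had 6267 normalized reads in TG 8 against 4942 to 5156 in the other TG libraries, Syp had 19544 in TG 2 against 17424 to 17503, and Dmd had 199 in TG 2 against 80.3 to 96.0. Among marker sums, WT 3 held 75384 normalized reads of pigment epithelium, 13225 of lens and 19557 of microglia markers, against at most 7129, 443 and 14374 in the other WT libraries. WT 4 had 79032 for cone markers against 100189 to 103894, and 2227 for blood markers against 29468 to 31451. TG 8 had 21807 for blood markers against 11859 to 12848 in the other TG libraries. The part of these in the members' values was not tested, beyond the fit without WT 3 and TG 6.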

How the results depend on the processing

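Under 24 alternatives each, 0 members and 0 of the 34 further genes passed, and the lowest adjusted p of any member was 0.64. The sign held for 7 of 10 members. Ctbp2 turned positive with upper-quartile scaling (0.0060), sex as a term (0.049), eye as a term (0.013), males only (0.14), array weights (0.032), edgeR (0.0065), DESeq2 (0.0043), without WT 3 and TG 6 (0.0082) and with the length balance (0.037), and ran from -0.090 to 0.060 without 1 library. Cplx4 turned negative with males only (-0.12), without WT 3 and TG 6 (-0.045) and with the length balance (-0.092), and ran from -0.10 to 0.11 without 1 library. Rims2 turned positive with males only (0.14) and the length balance (0.0083), and Sv2b with males only (0.086). The causes were not tested. Males only left 2 TG and 3 WT libraries. Without 1 library, Pclo ran from -0.55 to -0.25, Cplx3 from 0.03 to 0.35 and Elfn1 from -0.34 to -0.10. The difference from the rod markers ran from 0.02 to 0.18 without 1 library and was 0.03 with quantile normalization. Choices that act only in the fit leave it as it is and were not run for it. No paired analysis was possible because TG and WT share only 1 replicate number in the labels. With 4 libraries a group, standard errors of 0.11 to 0.21 limit what could be seen in a single member.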
